A study of Arabidopsis thaliana with 7 samples.

Results

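The 10 genes described here belong to the thalianol and marneral triterpene pathways of Arabidopsis roots. They were taken by their locus identifiers out of 32833 genes counted, and all 10 passed the filter on low counts that left 20600 genes. The thalianol cluster on chromosome 5 contributed THAS1, CYP708A2, CYP705A5, AT5G47980 and AT5G47950, and the marneral cluster on the same chromosome contributed MRN1, CYP71A16 and CYP705A12. The reductase genes SDR4 and AT1G66800, which lie on chromosomes 3 and 1, completed the set. The set was chosen by the counts of these same libraries, with the difference between cepd and Col-0 already known. The values of its members in cepd and Col-0 are therefore given as a description: no p-value is given for a member, and the calls counted further on support no statement.

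Triterpenes are made by oxidosqualene cyclases, which fold the linear precursor oxidosqualene into ring systems that cytochrome P450s, acyltransferases and reductases then decorate. In Arabidopsis several of these enzymes are encoded side by side, and the thalianol and marneral clusters are known for their expression in roots. Thalianol derivatives released by roots are known to shape the bacterial community around them.

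RNA of whole roots was sequenced for the cepd mutant and for its wild-type background Col-0. The cepd line is a single quadruple mutant in which the glutaredoxin genes ROXY6, ROXY7, ROXY8 and ROXY9 were edited with CRISPR/Cas9 and combined by crossing. Seedlings of both genotypes were raised for 7 d with full nitrogen (FN, KNO3 at 2 mM, NH4NO3 at 1 mM and glutamine at 1 mM), followed by 2 d with low nitrogen (LN, KNO3 at 0.1 mM and NH4NO3 at 50 µM). Each library pooled roots of 50 plants from 5 plates. The 4 cepd libraries (replicates 1 to 4) and the 3 Col-0 libraries (replicates 1, 3 and 4) came from 4 independent experiments. The authors had excluded another Col-0 library, not among these replicates, because it held leaf material. The labels give replicate numbers only, and a number was taken here to mark an experiment.

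The libraries held 30758339 to 46611731 counts in cepd and 37292558 to 38474492 counts in Col-0. ROXY6 averaged 3.77 ± 0.753 CPM (counts scaled to library size) in cepd and 5.64 ± 0.376 CPM in Col-0 (SD, n = 4 and n = 3), and the other mutated genes were at 2.57 CPM or less in every library. An edit that breaks a reading frame can leave the transcript in place, so these levels do not test the genotype. Markers of leaf cells, all of them photosynthesis genes, summed to 343 to 477 CPM in cepd and 142 to 189 CPM in Col-0. The study reports photosynthesis genes as enriched among genes higher in cepd roots, so these markers cannot tell leaf RNA from expression in roots. Of these markers, 4 of 8 were higher in cepd by the edgeR test used below, against 9.64% of all genes tested, and none were at 0. Root hair markers summed to 285 to 324 CPM in cepd and 550 to 588 CPM in Col-0, with 5 of 6 markers lower in cepd, against 8.3% of all genes tested. The sums for the cortex and endodermis (183 to 201 CPM in cepd, 195 to 214 CPM in Col-0), the stele (128 to 140 CPM in cepd, 125 to 151 CPM in Col-0), the root tip (49.6 to 53.9 CPM in cepd, 48.3 to 50.8 CPM in Col-0) and dividing cells (202 to 211 CPM in cepd, 200.2 to 224 CPM in Col-0) overlapped between the genotypes. In RNA from whole roots, fewer cells of a type and less RNA per cell cannot be told apart.

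The thalianol cluster spans 44.7 kb (chr5:19417020-19461706, TAIR10.1) and the marneral cluster 34.7 kb (chr5:17023502-17058245), 2359 kb away. No member overlaps another annotated gene. The 250 bases before the annotated start of each member were searched on both strands for motifs that bind TGA-type bZIP transcription factors, the family known to recruit CC-type glutaredoxins such as the ROXY proteins. The letters searched were TGACG, its palindromic form TGACGTCA, which holds TGACG on both strands, and TACGTA. Of the 10 members, 3 held a match, and 22.5% of 27443 protein-coding promoters of this length held TGACG or TACGTA. The windows with a match are printed here in lower case, 5′ to 3′ on the strand of the gene, with the match in capitals.
THAS1 (chr5:19456587-19456836, plus strand): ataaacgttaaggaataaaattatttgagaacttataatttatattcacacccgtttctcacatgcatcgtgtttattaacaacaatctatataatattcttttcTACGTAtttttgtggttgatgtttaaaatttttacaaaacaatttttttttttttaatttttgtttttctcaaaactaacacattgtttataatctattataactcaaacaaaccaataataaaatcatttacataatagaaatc
CYP705A5 (chr5:19434508-19434757, plus strand): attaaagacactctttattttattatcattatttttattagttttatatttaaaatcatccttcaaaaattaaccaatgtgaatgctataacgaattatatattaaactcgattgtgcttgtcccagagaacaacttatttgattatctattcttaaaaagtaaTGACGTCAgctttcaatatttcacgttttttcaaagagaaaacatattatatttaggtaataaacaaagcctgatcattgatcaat
SDR4 (chr3:11195172-11195421, minus strand): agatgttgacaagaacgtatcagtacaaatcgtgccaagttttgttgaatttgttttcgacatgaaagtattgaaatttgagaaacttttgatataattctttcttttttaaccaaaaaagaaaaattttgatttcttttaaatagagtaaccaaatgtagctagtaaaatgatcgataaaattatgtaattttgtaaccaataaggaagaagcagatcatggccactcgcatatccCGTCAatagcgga

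The THAS1 window held TACGTA starting 145 bases before the gene, a hexamer found in 4.94% of all promoters. The CYP705A5 window held the octamer TGACGTCA starting 86 bases before the gene, and 0.503% of promoters held it. The SDR4 window held TGACG on the opposite strand, 13 bases before the gene, and 18.6% of promoters held TGACG. The windows of the other 7 members, those of CYP708A2, MRN1 and AT1G66800 among them, held none of these letters. A match describes the sequence and does not show a binding site.

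The thalianol cluster was the more abundant of the clusters, and its genes closest to the synthase showed the widest separation between the genotypes. THAS1, the thalianol synthase that cyclizes oxidosqualene (AT5G48010, chr5:19456837-19461706, plus strand), had 218, 213, 244 and 240.0 CPM in cepd replicates 1 to 4, against 98.1, 65.8 and 51.9 CPM in Col-0 replicates 1, 3 and 4. Every cepd library lay above every Col-0 library, and within Col-0 replicate 1 was the highest. The means were 229 ± 15.5 CPM in cepd and 71.9 ± 23.7 CPM in Col-0 (SD, n = 4 and n = 3), a log2 fold change (log2FC, cepd over Col-0) of 1.67 with a standard error (SE) of 0.19.

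CYP708A2, the cytochrome P450 that hydroxylates thalianol (AT5G48000, chr5:19444103-19447866, minus strand), had 151, 125, 137 and 138 CPM in cepd, against 64.6, 33.0 and 27.9 CPM in Col-0. The groups did not overlap, and the lowest cepd library stood well above Col-0 replicate 1, the highest of Col-0. Its log2FC was 1.72 (SE 0.26). The ratio of THAS1 to CYP708A2 was alike in both genotypes, at 1.44 to 1.78 in cepd and 1.52 to 1.99 in Col-0, so that the CPM of synthase and hydroxylase differed between the genotypes by a similar factor.

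CYP705A5, the cytochrome P450 that introduces a further double bond into hydroxylated thalianol (AT5G47990, chr5:19434758-19436749, plus strand), had 208, 149, 164 and 178 CPM in cepd, against 127, 66.9 and 86.7 CPM in Col-0. The groups did not overlap, although cepd replicate 2 and Col-0 replicate 1 came close. Its log2FC was 0.90 (SE 0.20).

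The acyltransferase genes of the cluster, both of the BAHD (HXXXD) family, showed smaller differences. AT5G47980 (chr5:19428888-19430517, plus strand) had 34.4, 21.6, 34.2 and 30.0 CPM in cepd, against 28.2, 12.6 and 19.4 CPM in Col-0, and AT5G47950 (chr5:19417020-19418657, minus strand) had 42.9, 31.1, 36.0 and 39.0 CPM in cepd, against 31.7, 17.6 and 24.0 CPM in Col-0. For both genes cepd replicate 2 fell below Col-0 replicate 1, so the groups overlapped. The log2FC was 0.58 (SE 0.26) for AT5G47980 and 0.61 (SE 0.18) for AT5G47950.

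The make-up of the cluster's transcripts differed between the genotypes with these unequal differences. Per kb of exon, THAS1 supplied 30.8 ± 2.72% of the summed level of the 5 genes in cepd and 22.4 ± 3.93% in Col-0 (SD, n = 4 and n = 3), and the acyltransferase pair supplied 14.6 ± 1.07% in cepd and 22.3 ± 2.87% in Col-0. The ratio of THAS1 to AT5G47980 in CPM was 6.33 to 9.87 in cepd and 2.68 to 5.22 in Col-0, with no overlap.

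**Figure D1:**
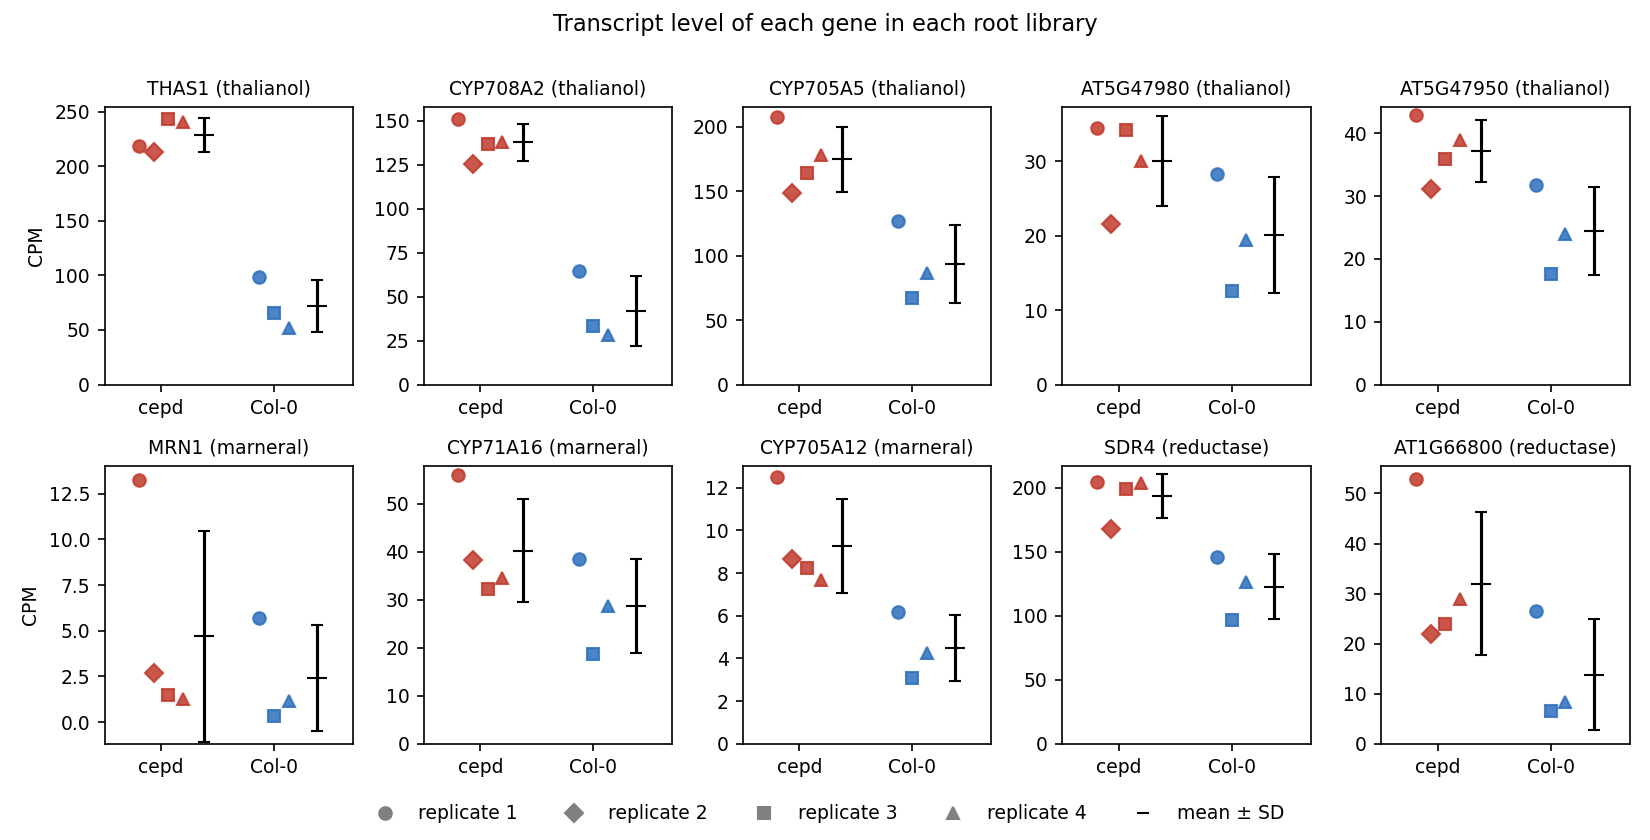
CPM of each of the 10 genes (y axis, linear, a scale for each panel) in each library, with cepd (red) left of Col-0 (blue), marker shapes for the replicate numbers, and black bars for mean ± SD (n = 4 cepd, n = 3 Col-0). For THAS1, CYP708A2, CYP705A5, CYP705A12 and SDR4 every cepd library lies above every Col-0 library, and for MRN1 and AT1G66800 replicate 1 stands above the rest in both genotypes.

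The marneral cluster was present at a lower level, and its genotypes overlapped more. MRN1, the marneral synthase (AT5G42600, chr5:17053453-17058245, plus strand), had 13.3, 2.71, 1.49 and 1.28 CPM in cepd, against 5.71, 0.353 and 1.16 CPM in Col-0. The groups overlapped, and replicate 1 exceeded every other library of its genotype. With 13 to 495 counts per library, MRN1 was the least counted member, and its log2FC of 0.95 had an SE of 1.06. The value was -0.42 without cepd replicate 1 and 2.60 without Col-0 replicate 1, so both its size and, without cepd replicate 1, its direction depended on single libraries.

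CYP71A16, the cytochrome P450 that oxidizes marneral (AT5G42590, chr5:17031024-17033800, minus strand), had 55.9, 38.3, 32.2 and 34.5 CPM in cepd, against 38.5, 18.8 and 28.8 CPM in Col-0. Col-0 replicate 1 exceeded cepd replicates 2, 3 and 4, so the groups overlapped. Its log2FC was 0.49 (SE 0.26).

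CYP705A12, the other cytochrome P450 gene of the cluster (AT5G42580, chr5:17023502-17025361, minus strand), had 12.5, 8.66, 8.24 and 7.68 CPM in cepd, against 6.16, 3.07 and 4.25 CPM in Col-0. It was the only marneral gene whose groups did not overlap. Its log2FC was 1.04 (SE 0.24).

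CYP71A16 supplied 76.5 ± 3.45% of the summed level per kb of the 3 marneral genes in cepd and 82.7 ± 3.34% in Col-0 (SD, n = 4 and n = 3). The synthase gene MRN1 supplied 11.8% in cepd replicate 1 and 2.05 to 3.81% in the other cepd libraries, against 8.08% in Col-0 replicate 1 and 1.099 to 2.36% in the other Col-0 libraries. In both genotypes the transcripts of the first enzyme were thus scarcer than those of the enzyme that acts after it, whereas in the thalianol cluster THAS1 exceeded CYP708A2 per kb. The contrast did not extend to CYP705A5, which acts on hydroxylated thalianol. Its mean CPM per kb was 91.5 against 86.1 for THAS1 in cepd, within their spread, and 48.9 against 27.1 in Col-0.

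The reductase genes, which act on thalianol derivatives from outside the cluster, differed in level and in spread. SDR4 (AT3G29250, chr3:11193389-11195171, minus strand) had 204, 168, 199 and 203 CPM in cepd, against 146, 96.2 and 126 CPM in Col-0. The groups did not overlap. Its log2FC was 0.66 (SE 0.14), the smallest error among the members.

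AT1G66800 (chr1:24924774-24926412, plus strand) had 52.9, 21.9, 24.0 and 29.0 CPM in cepd, against 26.6, 6.43 and 8.39 CPM in Col-0. Col-0 replicate 1 lay within the range of the cepd libraries, and the other Col-0 libraries lay far below it. The log2FC was 1.21 (SE 0.53), a 2.32-fold difference that became 4.29-fold without Col-0 replicate 1.

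Ranked by mean CPM per kb of exon in cepd, SDR4 was the highest with 129 ± 11.5, followed by CYP705A5 with 91.5 ± 13.2, THAS1 with 86.1 ± 5.82 and CYP708A2 with 62.2 ± 4.75 (SD, n = 4). CYP705A5 and THAS1 did not differ beyond their spread. In the middle of the order stood AT1G66800 with 26.3 ± 11.8, AT5G47950 with 22.7 ± 3.03, CYP71A16 with 21.8 ± 5.83 and AT5G47980 with 18.4 ± 3.68, whose spreads overlapped. CYP705A12 with 5.22 ± 1.24 and MRN1 with 1.76 ± 2.16 were the lowest.

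In Col-0 the order began with SDR4 at 82.0 ± 16.7 CPM per kb and CYP705A5 at 48.9 ± 15.9 (SD, n = 3). THAS1 at 27.1 ± 8.94, CYP708A2 at 18.9 ± 8.96, CYP71A16 at 15.5 ± 5.34, AT5G47950 at 14.9 ± 4.31, AT5G47980 at 12.3 ± 4.80 and AT1G66800 at 11.4 ± 9.14 followed. The intervals of mean ± SD of neighbours in this order overlapped, which does not make their levels alike. THAS1 thus stood apart from the acyltransferase genes in cepd. In Col-0 the intervals of mean ± SD of THAS1 and AT5G47950 overlapped. Mean ± SD does not use the pairing of genes within a library. Within each single Col-0 library, THAS1 was higher per kb than CYP708A2 and both acyltransferase genes, and CYP705A5 was higher than THAS1. AT5G47950 was higher per kb than AT5G47980 in every library of both genotypes. CYP705A12 at 2.53 ± 0.878 and MRN1 at 0.902 ± 1.08 were again the lowest.

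Summed over its 5 genes, the thalianol cluster had 654, 540 (replicate 2), 614 and 625 CPM in cepd, against 349, 196 and 210 CPM in Col-0, with no overlap. The 3 marneral genes summed to 81.7, 49.7, 41.9 and 43.5 CPM in cepd, against 50.4, 22.2 and 34.2 CPM in Col-0, and these ranges overlapped. The ratio of the thalianol sum to the marneral sum was 8.01, 10.9, 14.7 and 14.4 in cepd, against 6.94, 8.83 and 6.14 in Col-0. Only cepd replicate 1 fell within the Col-0 range, and it was the cepd library with the highest sum of each cluster. The mean log2FC of the thalianol genes exceeded that of the marneral genes by 0.27, and this difference was -0.15 without Col-0 replicate 1 and 0.80 without cepd replicate 1. The clusters were thus not separated by their mean log2FC in a way that held without single libraries.

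Of the 10 members, 6 were higher in cepd at an adjusted p under 0.05 in edgeR's quasi-likelihood test, against 9.64% of all genes tested, and none were lower, against 8.3% of all genes. With a fold change above 2 as well, 3 members (THAS1, CYP708A2 and CYP705A12) were called higher, against 1.93% of all genes, and none were called lower, against 2.45%. For 5 members every cepd library lay above every Col-0 library, which held for 15.3% of all genes. Libraries of the same replicate number were taken to share an experiment. Between them, all 10 members were higher in cepd in each of experiments 1, 3 and 4, which held for 30.1% of all genes. Because the members were chosen with this comparison known, these counts describe the choice. The log2 ratio of THAS1 was 1.15 in experiment 1, 1.89 in experiment 3 and 2.21 in experiment 4, and that of CYP708A2 was 1.23, 2.05 and 2.30. For both genes the smallest ratio came from experiment 1, in which Col-0 had its highest level.

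The members also varied together between libraries of one genotype. The set was chosen with the counts of these libraries known, and its genes are not independent of each other. The counts that follow are therefore a description as well. In Col-0, replicate 1 was the highest library for 10 of 10 members, against 37.2% of all genes, and replicate 3 was the lowest for 8 of 10, against 26.8% of all genes. The exceptions were THAS1 and CYP708A2, which were lowest in Col-0 replicate 4. In cepd, replicate 1 was the highest for 9 of 10 members, against 27.5% of all genes, with THAS1 as the exception. It was the highest in both genotypes for 9 of 10 members, against 16.5% of all genes.

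The median coefficient of variation of the members was 17.2% in cepd, against 8.23% for all genes tested, and 34.5% in Col-0, against 10.5% for all genes tested. Only THAS1 (6.76%), CYP708A2 (7.65%) and SDR4 (8.91%) varied by less than 10% in cepd, and none of the members did in Col-0, where SDR4 was the steadiest at 20.4% and MRN1 the least steady at 120%. The leaf markers were highest in the same libraries, with a sum of 477 CPM in cepd replicate 1 against 343 to 394 CPM in the other cepd libraries, and 189 CPM in Col-0 replicate 1 against 142 and 152 CPM in the other Col-0 libraries. Root hair markers did not follow this pattern in cepd, where replicate 1 held 288 CPM within a range of 285 to 324 CPM. The sum for dividing cells was also highest in replicate 1 of both genotypes. It was 211.5 CPM in cepd, close to 211.2 CPM in cepd replicate 4, and 224 CPM in Col-0. The sums for the cortex and endodermis, the stele and the root tip were not highest in replicate 1 of both genotypes. Leaf RNA and expression of photosynthesis genes in roots cannot be told apart by the leaf markers. The part of leaf RNA in the levels of the members was not tested.

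**Figure D2:**
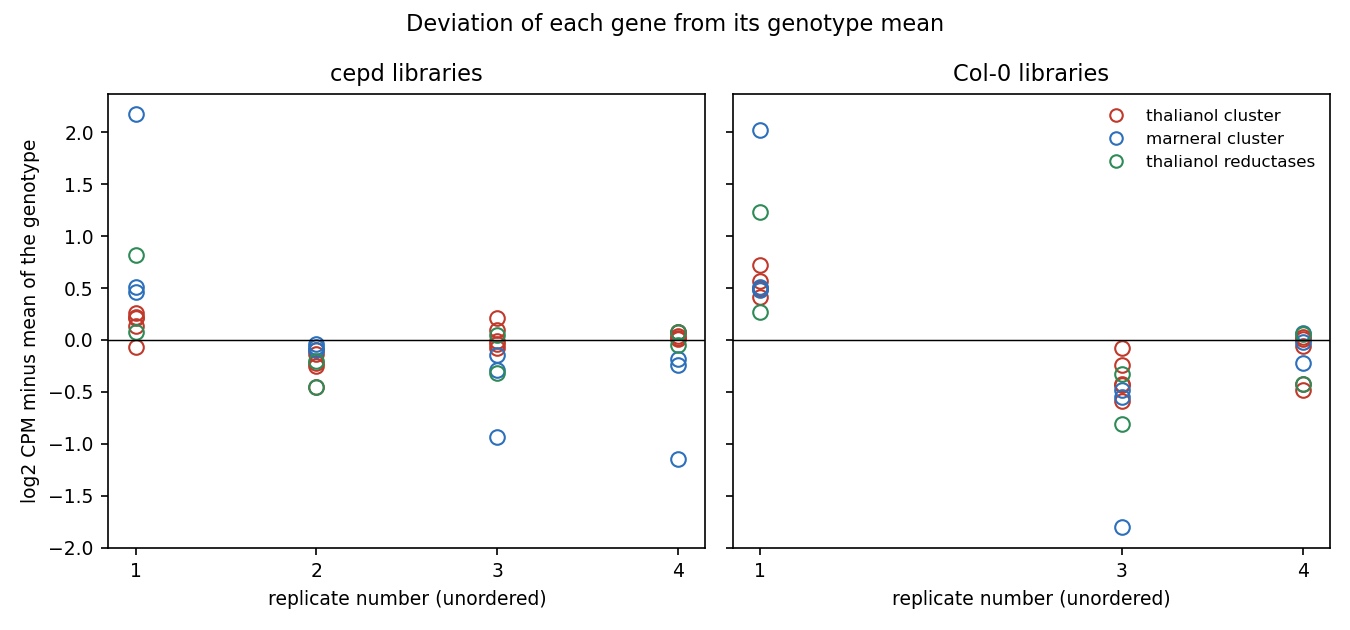
Deviation of log2 CPM from the mean of the genotype (y axis) for each of the 10 genes, by replicate number (x axis, the numbers have no order), in cepd (left) and Col-0 (right), with colours for the thalianol cluster, the marneral cluster and the reductases. All points of Col-0 replicate 1 lie above 0 and all points of Col-0 replicate 3 lie below it, while cepd replicate 1 has THAS1 as its only gene below 0.

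Without both libraries of experiment 1, a comparison added after the data were seen, the log2FC was 1.98 for THAS1, 2.13 for CYP708A2, 1.24 for MRN1 and 1.76 for AT1G66800. It was higher than with all libraries for each of the 10 members, the smallest being 0.56 for CYP71A16. Col-0 replicate 1 was the highest Col-0 library for each of the 10 members, so its removal lowered every Col-0 mean. For 9 of the 10 members cepd replicate 1 was the highest cepd library, so its removal lowered their cepd means as well.

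Genes within and around the clusters were compared next, to see whether the difference extended to neighbours. The 10 annotated genes on each side of each cluster and every gene between its members made 45 genes, of which 32 had enough counts to be tested. Of these, 6 were lower in cepd and 1 was higher, against 8.3% and 9.64% of all genes tested, and the median log2FC of the 32 genes was -0.09, against 0.01 for all genes. With the experiment as a block, 10 were lower and 2 were higher.

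Between the members of the thalianol cluster lie genes for other functions, and they did not share the direction of the members. RABA4C, a small GTPase of the RAB family of vesicle transport regulators, had 6.01, 5.83, 7.07 and 6.76 CPM in cepd, against 9.78, 10.2 and 10.8 CPM in Col-0. Every cepd library lay below every Col-0 library, with a log2FC of -0.67 (SE 0.10, adjusted p = 0.00141 in edgeR). AT5G47970, annotated as an aldolase-type TIM barrel protein, was lower with a log2FC of -0.26 (SE 0.07, adjusted p = 0.0418 in edgeR), a call that was lost in 8 of 14 alternative settings, in each of which the log2FC stayed negative. RABA4C and AT5G47970 overlap at their ends on opposite strands, and reads in the overlap could not be assigned by a library kit that does not mark strand. The third gene in this interval, AT5G07035, and both genes annotated between the marneral members, AT5G06325 and AT5G06335, had too few counts to be tested.

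The gene after MRN1, AT5G42610, annotated as a calcium uniporter, had 1.18, 1.53, 0.982 and 1.1004 CPM in cepd, against 6.91, 4.18 and 9.21 CPM in Col-0. The groups did not overlap, and its log2FC of -2.51 (SE 0.26, adjusted p = 0.000324 in edgeR) was opposite in sign to those of the marneral genes. On the other side of the marneral cluster the dirigent-like genes AT5G42510 and AT5G42500, named for the proteins that steer the coupling of lignin-type radicals, were lower, with log2FC of -1.40 (SE 0.13, adjusted p = 0.000156) and -0.48 (SE 0.07, adjusted p = 0.00159 in edgeR). ERF1-1, a translation release factor beside the thalianol cluster that was named after its value was seen, was lower with a log2FC of -0.41 (SE 0.11, adjusted p = 0.0289 in edgeR), a call lost in 6 of 14 alternative settings.

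AT5G48110, annotated as a terpenoid cyclase and lying beyond THAS1, was the only neighbour that was higher. It averaged 82.8 ± 10.1 CPM in cepd and 47.2 ± 13.7 CPM in Col-0 (SD, n = 4 and n = 3), with a log2FC of 0.81 (SE 0.18, adjusted p = 0.0145 in edgeR). Without Col-0 replicate 4 its adjusted p was 0.0555.

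**Figure D3:**
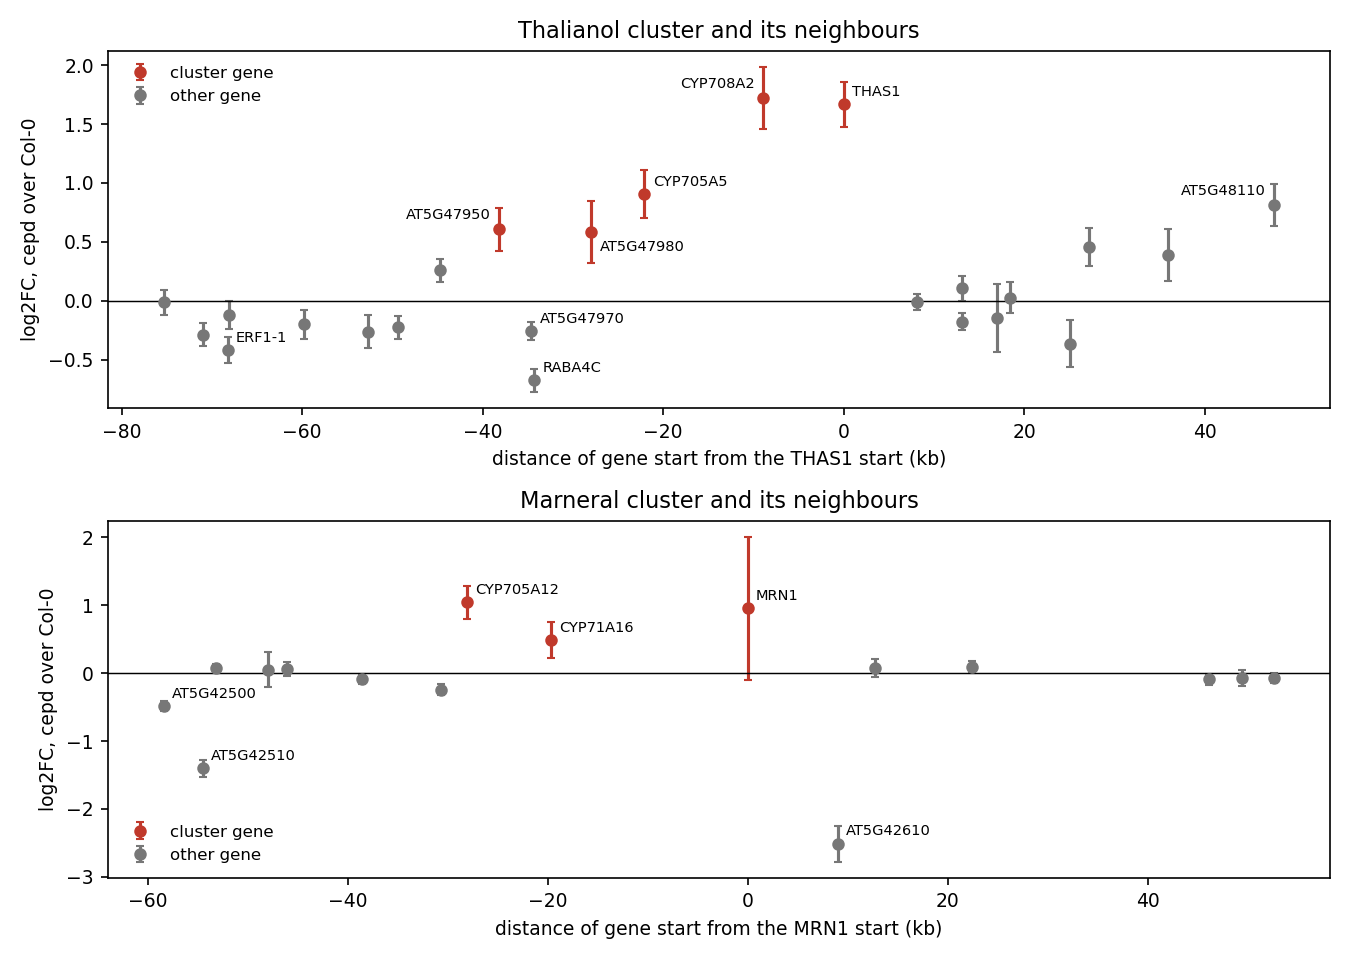
The log2FC of cepd over Col-0 (y axis, points with SE bars) against the distance of each gene's start from the start of THAS1 (upper panel) or MRN1 (lower panel) in kb, for cluster genes (red) and the tested neighbours (grey). Names are given for the cluster genes and for neighbours past an adjusted p of 0.05. CYP708A2 and THAS1 stand highest at 1.72 and 1.67, RABA4C lies below 0 among the thalianol genes, and AT5G42610 lies at -2.51 beside MRN1.

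Other cyclases and other triterpene clusters were compared next. Of 11 further oxidosqualene cyclase genes 10 were tested, and 1 was lower and 1 higher in cepd, against 8.3% and 9.64% of all genes tested. PEN3, a pentacyclic triterpene synthase that belongs to another cluster, had 2.25, 1.31, 1.99 and 1.44 CPM in cepd, against 9.12, 5.46 and 4.17 CPM in Col-0, with no overlap and a log2FC of -1.83 (SE 0.28, adjusted p = 0.00219 in edgeR). BAS, a beta-amyrin synthase, had 13.5, 15.2, 16.3 and 18.8 CPM in cepd, against 7.28, 7.47 and 5.14 CPM in Col-0, with no overlap and a log2FC of 1.27 (SE 0.15, adjusted p = 0.000612 in edgeR). CAS1, the cycloartenol synthase that starts sterol synthesis from the same precursor, had a log2FC of 0.17 (SE 0.12) and an adjusted p of 0.366 in edgeR, and CAMS1, a camelliol synthase, had a log2FC of 0.23 and an adjusted p of 0.318. With the experiment as a block, 2 of the cyclases were higher.

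Of the 15 genes of the other triterpene clusters, around PEN1 and PEN3, 7 were lower in cepd and none were higher, against 8.3% and 9.64% of all genes tested. Their median log2FC was -0.47, against 0.93 for the 10 members and 0.01 for all genes. The lower genes included the cytochrome P450 genes CYP702A3 (log2FC -1.85, SE 0.23, adjusted p = 0.00071), AT5G36130 (-1.26, SE 0.12, adjusted p = 0.00015) and CYP702A5 (-0.78, SE 0.10, adjusted p = 0.000693 in edgeR). The acyltransferase gene AT4G15390, of the same family as the thalianol acyltransferases, was lower with a log2FC of -0.42 (SE 0.06, adjusted p = 0.0016 in edgeR), with 423 ± 14.6 CPM in cepd and 565 ± 6.33 CPM in Col-0 (SD, n = 4 and n = 3). The remaining lower genes were CYP716A2, CYP705A4 and PEN3, while PEN1 itself had a log2FC of -0.05 and an adjusted p of 0.843. The 7 calls were made under each alternative, with 7 to 9 genes called lower.

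The supply of the precursor was examined next. Of 20 genes from acetyl-CoA through mevalonate to oxidosqualene, 1 was lower and none were higher, against 8.3% and 9.64% of all genes tested, with a median log2FC of -0.06. SQP2, a squalene monooxygenase, was lower, with 6.07 ± 0.846 CPM in cepd and 9.62 ± 0.827 CPM in Col-0 (SD, n = 4 and n = 3) and a log2FC of -0.66 (SE 0.12, adjusted p = 0.00567 in edgeR). XF1, the squalene epoxidase of general sterol synthesis, had a log2FC of 0.23 and an adjusted p of 0.0509 in edgeR. HMG2, a reductase that makes mevalonate, had a log2FC of -0.18 (adjusted p = 0.0687 in edgeR), and MK, the mevalonate kinase, had 0.23 (adjusted p = 0.0825 in edgeR). With the experiment as a block, 3 genes of this route were lower and 3 were higher.

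Of 14 sterol synthesis genes 2 were lower and none were higher, against 8.3% and 9.64% of all genes tested, with a median log2FC of -0.14. SMO1-1, a sterol methyl oxidase, had a log2FC of -0.35 (SE 0.09, adjusted p = 0.0243 in edgeR), and CPI1, the cyclopropyl isomerase, had -0.24 (SE 0.07, adjusted p = 0.0301 in edgeR). Neither call was made without Col-0 replicate 3, and neither was made without Col-0 replicate 4 or without cepd replicate 1, 2 or 3. FK and SMT3, a sterol reductase and a sterol methyltransferase, had log2FC of -0.24 and -0.21 and adjusted p of 0.062 and 0.141. With the experiment as a block, 4 genes were lower and 1 was higher.

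The cytochrome P450 subfamilies CYP705A and CYP708A, to which CYP705A5, CYP705A12 and CYP708A2 belong, hold 24 further genes, of which 22 were tested. Of these 22 genes, 1 was lower and 3 were higher in cepd, against 8.3% and 9.64% of all genes tested. Their median log2FC was 0.14. CYP705A25 was higher with a log2FC of 0.43 (SE 0.09, adjusted p = 0.0104 in edgeR), and CYP705A4, a gene of the PEN1 cluster, was lower with -0.47 (SE 0.09, adjusted p = 0.00687 in edgeR). CYP705A8 and CYP705A18 were higher by 0.25 and 0.35 with adjusted p of 0.048 and 0.0491. The number of higher genes was 1 without Col-0 replicate 3, 1 without Col-0 replicate 4, 1 without any single cepd library, 8 without Col-0 replicate 1 and 5 with the experiment as a block. The share of all genes at this threshold is not given for these fits. Over all genes, calls of a higher level with a fold change above 2 numbered 397 with all libraries. They numbered 497 without Col-0 replicate 1 and 382 with the block.

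**Figure D4:**
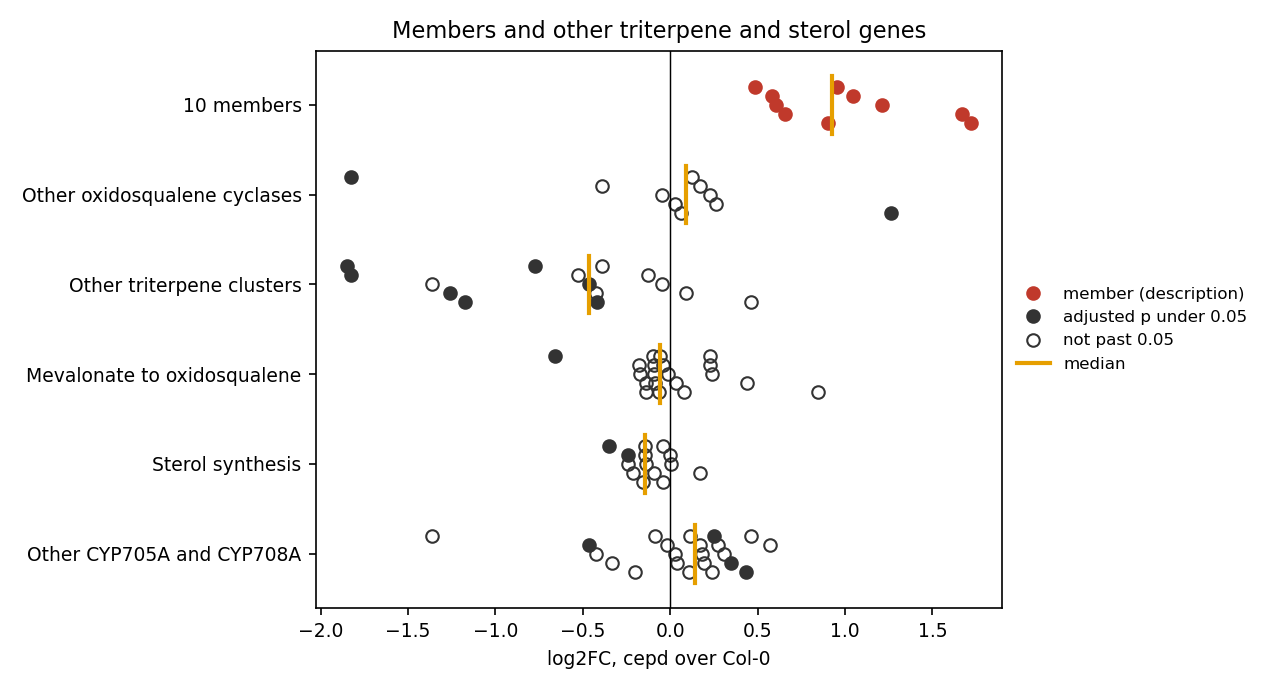
The log2FC of cepd over Col-0 (x axis) for the 10 members (red, given as a description) and for the tested genes of 5 related lists (black, filled where the adjusted p was under 0.05), with an orange bar at each median and points shifted vertically only to separate them. The median of the members is 0.93, that of the other triterpene clusters -0.47, and those of the other lists lie between -0.14 and 0.14.

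The genes whose level followed each cluster most closely over the 7 libraries were found by the root mean square (RMS) difference of log2 CPM, each profile centred on its mean. Nearest to the mean of the thalianol genes was AT4G37700, an uncharacterized gene, with an RMS difference of 0.058. It had 19.9, 17.1, 19.4 and 19.9 CPM in cepd, against 12.2, 6.46 and 6.99 CPM in Col-0. Next came TAPX, a peroxidase of the chloroplast thylakoid (0.110), and AT5G35940, a mannose-binding lectin (0.114). The thalianol genes themselves differed from the mean of the rest of their cluster by 0.165 (CYP705A5) to 0.450 (CYP708A2). The nearest genes were picked from all genes tested for their likeness to the mean of all 5, so their values and those of the members are not comparable.

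Nearest to the mean of the marneral genes were AT4G23590, a tyrosine transaminase (0.222), NdhO, a subunit of the chloroplast NAD(P)H dehydrogenase complex (0.246), and TIP2;3, an aquaporin of the vacuolar membrane (0.250). AT4G23590 had 23.9, 13.2, 9.82 and 11.2 CPM in cepd, against 10.7, 4.15 and 6.31 CPM in Col-0, with replicate 1 the highest in each genotype as for the marneral genes. The marneral genes differed from the mean of the rest of their cluster by 0.579 (CYP705A12) to 1.096 (MRN1). These likenesses rest on the same 7 libraries as the choice of the members, and they say nothing of function.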

How the data were processed

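Root RNA of cepd (4 libraries) and Col-0 (3 libraries) was analysed. The deposited tables gave unnormalized read counts for each gene. In the submitters' processing notes CASAVA 1.8.2, STAR 2.5.2b-2, HTSeq 0.9.1 and DESeq2 2.11.40.6 are named as tools and TAIR10 as the genome build. Libraries were made with a kit that does not mark strand, and the strand setting of the counting is not given in the sources used here.

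The analysis used edgeR 4.0.16 under R 4.3.3 (filterByExpr with minimum count 10 and minimum total 15, TMM scaling with factors 0.986 to 1.02, robust quasi-likelihood test, Benjamini-Hochberg correction over 20600 genes). The biological coefficient of variation was 11.2%. The standard errors (SE) were obtained from each F statistic and its fold change. CPM used the effective library sizes (total times TMM factor). Levels were divided by annotated exon length where genes were compared. The p-values measure the spread between libraries of one genotype, each from an independent experiment. The main fit held no block, so it ignored that cepd and Col-0 libraries were taken to share experiments. Gene positions, names and promoter sequences came from the RefSeq annotation and genome of TAIR10.1, whose chromosome lengths are those of TAIR10, and all 10 members matched.

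The members, the lists and the tests were chosen with earlier results of these data known. Named genes were the members, genes between them, up to 4 genes of each list with the smallest adjusted p together with genes called against their list's direction, and the 3 nearest profiles of each cluster. Other named genes are marked where they appear, apart from CYP716A2, PEN1, the markers and the mutated genes.

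Replicate numbers were taken to mark the experiments. Deviations from the genotype means correlated at 0.435, 0.189 and 0.274 for pairs 1, 3 and 4. Some unmatched numbers correlated positively as well. These were cepd replicate 4 with Col-0 replicate 3 (0.192), cepd replicate 2 with Col-0 replicate 1 (0.136) and cepd replicate 3 with Col-0 replicate 4 (0.135). The other unmatched pairs correlated negatively. The correlations do not settle that the libraries of replicate 3 share an experiment. Alternatives were DESeq2 1.42.0, its size factors, limma-voom (limma 3.58.1), no filter or CPM over 1 in 3 libraries, the block, and leaving out each library. The fit without experiment 1 was added after the data were seen. The edgeR code was tested on simulated data. Figures used Python with matplotlib.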

Additional observations from a re-analysis of the deposited data

Results flagged for a closer look

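In groups of 4 libraries, a value was singled out where its distance to the nearest other value, as a share of the group's range, exceeded Dixon's limit, which chance does in about 1 of 20 groups. Of 46 sets of cepd values examined, 6 met it. MRN1 had 13.3 CPM in cepd replicate 1, above the next library at 2.71 CPM, and SDR4 had 168 CPM in cepd replicate 2, below the next at 199 CPM. Among the other genes, CYP702A3 had 1.21 CPM in cepd replicate 2, SQP2 had 4.81 CPM in cepd replicate 2, CYP702A5 had 54.7 CPM in cepd replicate 4 and ROXY9 (AT2G47880) had 0.0213 CPM in cepd replicate 3, where the other cepd libraries had none.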

How the results depend on the processing

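Over 14 alternatives the members' median log2FC was 0.61 to 1.26, and only MRN1 among the members changed sign. Over all genes, those called at an adjusted p under 0.05 and a fold change above 2 numbered 273 to 497 higher and 377 to 681 lower in cepd. Counts on the short lists used the adjusted p alone, so the ranges of the lists and of all genes are not comparable. The share of all genes at the adjusted p alone was given for the main fit only. With DESeq2 size factors in edgeR, 1 of the other CYP705A and CYP708A genes was higher. Of the mevalonate to oxidosqualene genes, 1 was higher with CPM over 1 in 3 libraries and 1 with limma-voom, and DESeq2 gave 2 lower and 1 higher, with 2 lower among the CYP705A and CYP708A genes. With the replicate block, flanking genes were 10 lower and 2 higher, other cyclases 2 higher, other triterpene clusters 1 higher, mevalonate genes 3 lower and 3 higher, sterol genes 4 lower and 1 higher, and CYP705A and CYP708A genes 2 lower and 5 higher. Without experiment 1, 2 cyclases, 1 gene of other triterpene clusters, 2 mevalonate genes, 1 sterol gene and 6 CYP705A and CYP708A genes were higher, and 1 sterol gene was lower. Leaving out single libraries gave 0 to 3 higher flanking genes, 1 to 3 higher cyclases, 0 to 1 higher genes of other triterpene clusters, 0 to 3 higher mevalonate genes, 0 to 3 lower and 0 to 1 higher sterol genes, and 1 to 2 lower and 1 to 8 higher CYP705A and CYP708A genes. The cause was not tested. MRN1 had 13 to 495 counts per library, the fewest of the members. One mutant line was studied, and cepd replicate 2 has no Col-0 partner.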
